A study of Mus musculus with 3 samples.

Results

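The small leucine-rich proteoglycans are secreted matrix proteins, and 9 of their genes (Dcn, Bgn, Lum, Fmod, Prelp, Ogn, Aspn, Kera and Podn) were read by symbol from the 21782 genes of the count table. The table holds polyA+ RNA-seq of mouse embryo fibroblasts (MEFs), isolated at E12.5 and grown in medium with 20% FBS. All 3 libraries are WT and asynchronous, each from 1 of 3 clones, so there is no second condition to compare. The sources used here do not say whether the clones came from separate embryos, and the spread between them may be in part technical. MEF is the name of a mixed primary culture, not of a purified cell type. The libraries held between 22594316 and 25261357 counts. A count of 0 allows up to 3 counts, or 0.119 to 0.133 CPM (counts per 1000000 scaled counts), depending on the clone.

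These proteins share a core of leucine-rich repeats that is flanked by cysteines, and many carry chondroitin, dermatan or keratan sulfate chains. They bind collagen fibrils and set how fibrils grow and pack in tendon, skin, bone and cornea. Several also bind growth factors of the TGF-beta family or cell surface receptors. The family is divided by sequence into classes. Decorin (Dcn), biglycan (Bgn) and asporin (Aspn) belong to class I. Lumican (Lum), fibromodulin (Fmod), prolargin (Prelp) and keratocan (Kera) belong to class II, osteoglycin (Ogn) to class III and podocan (Podn) to class V.

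The spacing of the cysteines before the repeats separates the classes, and the coding sequence of this stretch is shown to place each member. It was read from the transcript that has the longest open reading frame of its gene (GENCODE M21, GRCm38), here called the coding transcript, lies within 1 exon in every member, and has its 4 cysteine codons in capitals.
Dcn, chr10:97483507-97483548, plus strand: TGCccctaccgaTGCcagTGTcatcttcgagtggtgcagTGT
Bgn, chrX:73490979-73491020, plus strand: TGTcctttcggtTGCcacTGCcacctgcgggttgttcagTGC
Aspn, chr13:49551865-49551906, plus strand: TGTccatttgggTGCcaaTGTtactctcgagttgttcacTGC
Lum, chr10:97568353-97568403, plus strand: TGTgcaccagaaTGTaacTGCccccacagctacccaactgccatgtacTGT
Fmod, chr1:134040449-134040499, plus strand: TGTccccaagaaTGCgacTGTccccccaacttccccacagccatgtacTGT
Prelp, chr1:133915151-133915201, minus strand: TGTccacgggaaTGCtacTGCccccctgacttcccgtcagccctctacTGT
Kera, chr10:97608907-97608957, plus strand: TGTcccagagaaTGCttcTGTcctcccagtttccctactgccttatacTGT
Ogn, chr13:49615566-49615604, plus strand: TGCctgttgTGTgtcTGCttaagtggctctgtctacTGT
Podn, chr4:108027042-108027086, minus strand: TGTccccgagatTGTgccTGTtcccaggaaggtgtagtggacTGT
In Dcn, Bgn and Aspn, the gaps between the cysteines held 3, 1 and 6 residues. In Lum, Fmod, Prelp and Kera they held 3, 1 and 9, in Ogn 2, 1 and 6, and in Podn 3, 1 and 7. The coding transcripts encode 298 residues in Ogn, 611 in Podn and 338 to 378 in the other 7 members. The closest pair by protein sequence was Dcn and Bgn, with 199 of 353 aligned residues identical (56.4%). Prelp and Kera followed at 53.6%, and the most distant pairs, Dcn with Kera and Dcn with Ogn, were at 27.1%.

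Bgn stood far above the other members. Biglycan is a proteoglycan of bone and connective tissue that carries chondroitin or dermatan sulfate. Its gene (chromosome X, 73483602 to 73495933) was counted 203372, 162752 and 196103 times in clones 1, 2 and 3. After scaling, this was 7723 ± 485 CPM (SD, n = 3 clones), and 5 genes of the whole table had a higher mean. Bgn took 0.805%, 0.720% and 0.791% of all counts in clones 1, 2 and 3. The clones lay close together, since the highest was 1.13 times the lowest.

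Levels of different genes were compared as CPM per kb of annotated exon. On this scale Bgn reached 1342, 1183 and 1273 in clones 1, 2 and 3, with a mean of 1266 ± 79.6 (SD, n = 3). It made up 92.5%, 95.7% and 93.6% of the summed level of the 9 members. The exon length matters most for Bgn and Dcn, because their annotated exons are much longer than their coding transcripts. The exons of Bgn cover 6099 bp, but its coding transcript has 2419 nt, and for Dcn these are 5838 bp and 1758 nt. Per kb of coding transcript, Bgn was at 3192 ± 201 (SD, n = 3) and its share of the members was 97.3% ± 0.683 (SD, n = 3).

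**Figure D1:**
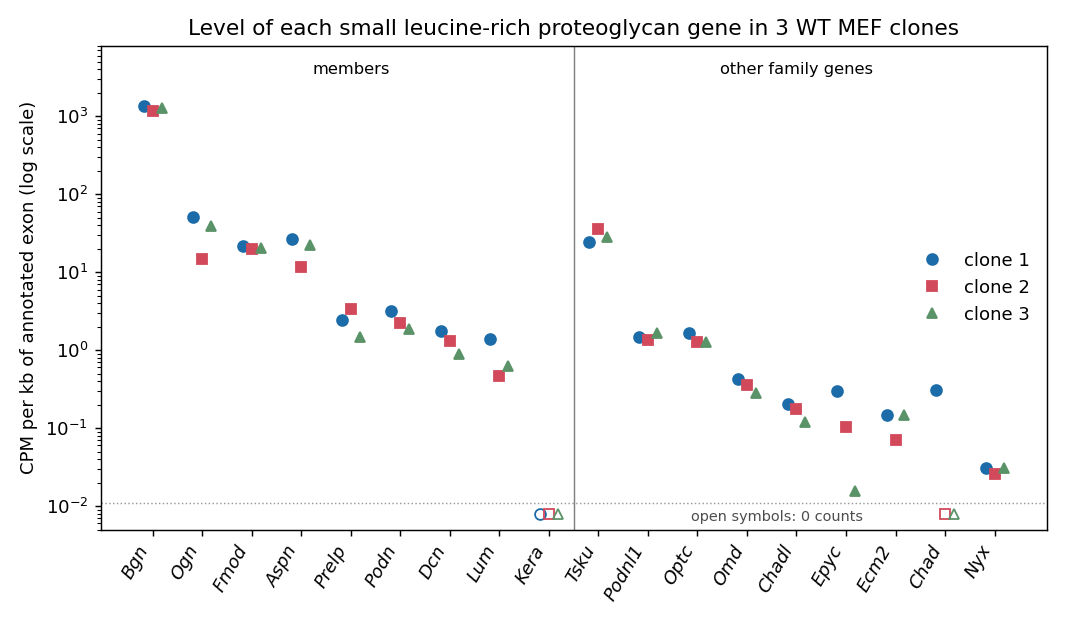
Level of each gene in CPM per kb of annotated exon (log scale) in the 3 WT clones, 1 symbol per clone, for the 9 members (left) and 9 further genes of the family (right). Bgn lies at 1183 to 1342, the next member Ogn at 14.6 to 51.3, and the open symbols mark 0 counts, as for Kera in every clone.

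Ogn, Fmod and Aspn formed a second tier. Osteoglycin is a keratan sulfate proteoglycan of bone and cornea, and its gene (chromosome 13, 49608046 to 49624501) was at 51.3, 14.6 and 39.3 CPM per kb of exon in clones 1, 2 and 3. Fmod, which encodes a collagen-binding protein of tendon and cartilage (chromosome 1, 134037254 to 134048277), was at 21.8, 20.0 and 20.7. Aspn, whose protein binds collagen and TGF-beta (chromosome 13, 49544443 to 49567565), was at 26.5, 11.6 and 22.2. The ranges of these 3 genes overlapped. Ogn was above Fmod in 2 of 3 clones, and Fmod was above Aspn only in clone 2. Bgn was at least 26.1 times above Ogn in every clone.

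The remaining members were low. Prelp encodes a protein of basement membranes and cartilage that anchors collagen (chromosome 1, 133910304 to 133921414), and it had 218, 278 and 136 counts in clones 1, 2 and 3, or 2.44 ± 0.961 CPM per kb of exon (SD, n = 3). Its exons overlap those of Gm15851 on the opposite strand over 9.68% of their length, and 7.71% of its 86-nt stretches matched that gene, so its count is less certain. Podn (chromosome 4, 108014791 to 108096445) had 334, 215 and 201 counts, or 2.42 ± 0.661 CPM per kb (SD, n = 3). Prelp was above Podn in 1 of 3 clones, and their ranges overlapped. In the coding transcripts of the other 8 members, no stretch of 86 nt was shared with annotated transcripts of other genes, allowing up to 2 mismatches. Exons outside the coding transcripts were not searched.

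Dcn, which encodes the proteoglycan that coats collagen fibrils in skin and tendon (chromosome 10, 97479609 to 97518143), was among the lowest members. It had 258, 173 and 130 counts in clones 1, 2 and 3, which is 7.73 ± 2.62 CPM (SD, n = 3). Bgn, its closest relative by sequence, was 755, 901 and 1444 times higher per kb of exon in the same clones. Per kb of coding transcript, which has 1758 nt for Dcn, the ratios were 573, 684 and 1096. Of the counts of both genes, Dcn took 0.127% in clone 1 (95% Wilson interval 0.112 to 0.143), 0.106% in clone 2 (0.0915 to 0.123) and 0.0662% in clone 3 (0.0558 to 0.0787). Only counting error is covered by such intervals. The share in clone 3 lay below the intervals of the other clones.

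Lum, the gene of the main keratan sulfate proteoglycan of the cornea (chromosome 10, 97565128 to 97572703), had 84, 26 and 39 counts in clones 1, 2 and 3. This was 0.828 ± 0.486 CPM per kb of exon (SD, n = 3), below Dcn in every clone, although the ranges of the genes overlapped. Kera, a second corneal keratan sulfate proteoglycan gene (chromosome 10, 97606879 to 97613692), had 0 counts in every clone and was not detectable at this depth. The order of the low members depended on the length used: per kb of coding transcript, Dcn was at 4.40 ± 1.49 (SD, n = 3), Podn at 3.25 ± 0.891 (SD, n = 3) and Prelp at 2.44 ± 0.961 (SD, n = 3). On that scale Dcn was above Podn in 3 of 3 clones, with overlapping ranges, whereas per kb of exon it was below Podn in 3 of 3.

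Without Bgn, the other members were divided differently in clone 2. Ogn made up 47.4% and 45.1% of their summed level per kb of exon in clones 1 and 3, but 27.2% in clone 2. Fmod took 20.1% and 23.8% in clones 1 and 3 and 37.3% in clone 2. Aspn held 24.4%, 21.6% and 25.5% in clones 1, 2 and 3.

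**Figure D2:**
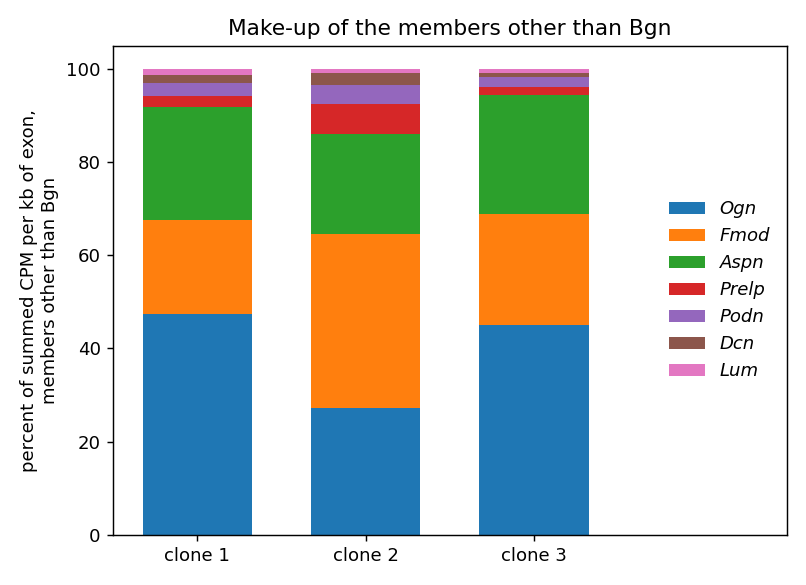
Make-up of the members other than Bgn in each clone, as percent of their summed CPM per kb of annotated exon (stacked bars, 1 colour per gene). Ogn is the largest part in clones 1 and 3 (47.4% and 45.1%), and Fmod is the largest in clone 2 (37.3%).

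Each member was then compared between clones with a Pearson chi-square test of its 3 counts against the scaled library sizes, adjusted over all tested genes by Benjamini-Hochberg. With 1 library per clone this test compares libraries, not conditions. Of the 8 members with at least 10 counts in every clone, 7 differed at an adjusted p-value under 0.05, beside 62.5% of all 12218 genes tested, and 5 of them differed by at least 2-fold, beside 7.93% of all genes. The count of members with 2-fold differences was 2 without clone 1, 2 without clone 2 and 3 without clone 3. That of all genes tested fell too, from 969 to 484, 203 and 835 in the same order. A highest-to-lowest ratio over fewer clones cannot be larger, apart from shifts in scaling, so falls were set by the measure. Of the same 8 members, 6 differed and were highest in clone 1, beside 23.8% of all genes tested, and 4 differed and were lowest in clone 2, beside 21.3%. The median range of log2(CPM + 1) was 0.96 over the 8 members and 0.28 over all genes tested.

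Ogn differed most. It was at 132, 37.5 and 101 CPM in clones 1, 2 and 3, a 3.51-fold range (Benjamini-Hochberg adjusted p = 1.3e-254, chi-square test). Clone 2 was low, and clones 1 and 3 lay nearer to each other. The range of Ogn on the log2 scale, 1.78, was larger than that of 99% of the genes tested, and without clone 2 it was 0.38. Aspn followed the same order of clones, at 62.3, 27.4 and 52.2 CPM, a 2.28-fold range (adjusted p = 1.04e-67, chi-square test). Its log2 range was 1.16, and 0.25 without clone 2.

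Lum, Dcn and Podn were highest in clone 1. Lum was at 3.38, 1.15 and 1.54 CPM in clones 1, 2 and 3, a 2.93-fold range (adjusted p = 2.01e-07, chi-square test). Dcn was at 10.4, 7.67 and 5.15 CPM, a 2.02-fold range (adjusted p = 9.89e-10, chi-square test). Podn was at 13.4, 9.53 and 7.96 CPM, a 1.69-fold range (adjusted p = 1.8e-08, chi-square test). Without clone 1, Lum (adjusted p = 0.415, chi-square test) and Podn (adjusted p = 0.152) no longer passed the threshold, so their calls depend on that library, the highest for both. Without it, 31.7% of all genes tested passed, against 62.5% with all 3 clones. The log2 range of Dcn fell from 0.89 to 0.50 without clone 1 and to 0.39 without clone 3, and that of Podn from 0.69 to 0.23 without clone 1 and to 0.45 without clone 3.

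Prelp went another way, with clone 2 highest. It was at 8.77, 12.3 and 5.38 CPM in clones 1, 2 and 3, a 2.29-fold range (adjusted p = 2.83e-14, chi-square test). Its log2 range of 1.06 was 0.61 without clone 2 and 0.45 without clone 3. Bgn passed the test with a range of only 1.13-fold, at counts so high that counting noise is small. Fmod did not pass, at 71.9, 66.2 and 68.5 CPM (adjusted p = 0.0863, chi-square test), but it did without clone 3 (adjusted p = 0.0358), where its range was 0.12 on the log2 scale.

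**Figure D3:**
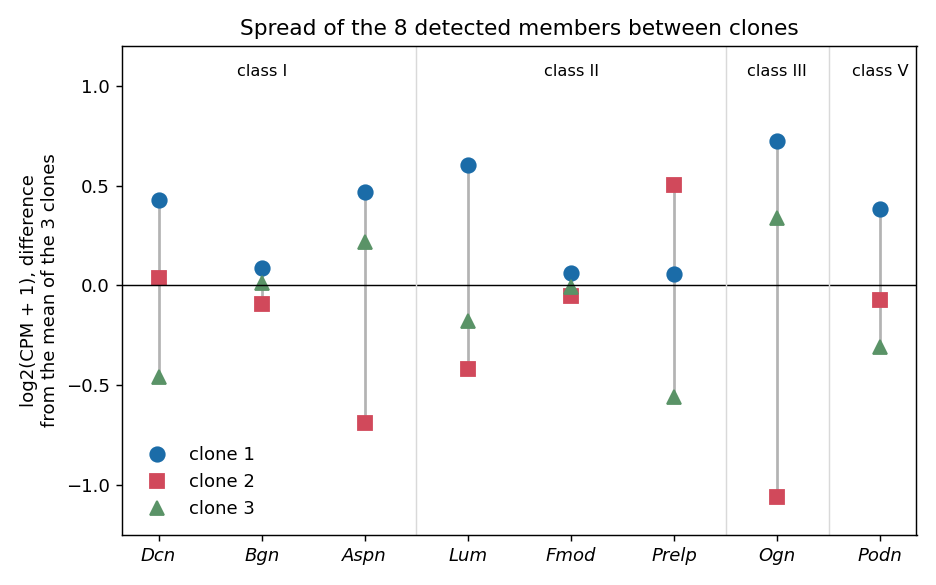
Position of log2(CPM + 1) relative to the 3-clone mean for the 8 detected members, grouped by class, 1 symbol per clone. Clone 2 lies lowest for Ogn (-1.06) and Aspn (-0.69) and highest for Prelp (0.50), whereas Bgn and Fmod stay within 0.10 of their mean in every clone.

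The spread between clones beyond counting noise was set beside the level of each gene. As edgeR estimated it gene by gene, the coefficient of variation was 0.594 for Ogn, 0.534 for Lum, 0.406 for Aspn, 0.395 for Prelp, 0.335 for Dcn and 0.260 for Podn. Bgn was at 0.0632 and Fmod at 0.0334. The trend over all genes at the same level was 0.141 for Ogn and 0.153 for Aspn, so that Ogn lay 4.20 times and Aspn 2.65 times above it. Prelp, Lum, Dcn and Podn were nearer the trend, at 1.71, 1.68, 1.35 and 1.23 times its value. Regardless of level, their log2 ranges exceeded those of 96.2%, 95.8%, 94% and 89% of the genes tested, in the same order. Bgn and Fmod lay below the trend, at 0.384 and 0.227 of its value, and their log2 ranges exceeded those of 29.5% and 14.7% of the genes tested. The median was 0.365 over the 8 members and 0.0939 over all genes tested. These medians do not take the level of each gene into account. Leaving out 1 clone at a time, the median of the members ranged from 0.187 to 0.257. These estimates rest on fewer libraries, and no median over all genes is given beside them. The fall can therefore not be read as a trait of the members.

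**Figure D4:**
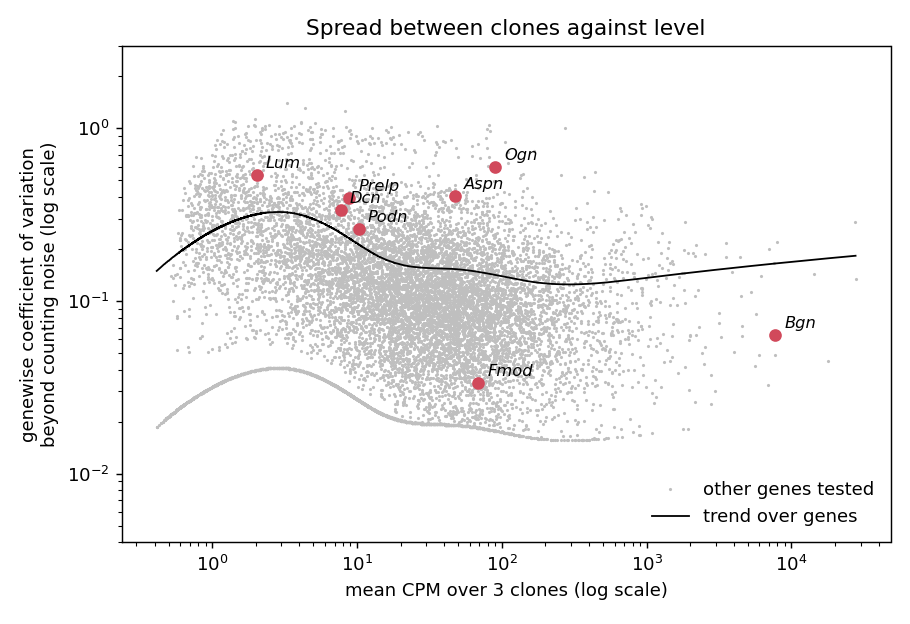
Genewise coefficient of variation between clones beyond counting noise against mean CPM (both log scales), with members in red, the other genes tested in grey and the trend as a black line. Ogn (0.594) and Aspn (0.406) lie above the trend and Bgn (0.0632) and Fmod (0.0334) below it, and the lower edge of the grey points is the smallest value the estimate allows.

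Most members lie beside another gene of the family. On chromosome 13, Ecm2, Aspn, Omd and Ogn follow each other on the plus strand with gaps of 11.7, 14.9 and 15.2 kb, and the introns of Cenpp on the opposite strand hold Ecm2, Omd and Ogn. Aspn and Ogn, at the highest levels there, were both lowest in clone 2. Omd, the osteomodulin gene between them, had 24, 18 and 16 counts in clones 1, 2 and 3 and did not differ at this depth (adjusted p = 0.485, chi-square test). Ecm2 had 21, 9 and 21 counts and was below the count filter. On chromosome 10, Dcn, Lum, Kera and Epyc follow each other with gaps of 47.0, 34.2 and 30.4 kb. Dcn and Lum were highest in clone 1, as was Epyc at 19, 6 and 1 counts, which was below the filter, and Kera had none. Exons of Gm10754, a gene with 0 counts, overlap 40.6% of the Epyc exons on the opposite strand. On chromosome 1, Optc and Prelp are 2.3 kb apart and Fmod lies 115.8 kb further. Optc, the opticin gene, had 106, 74 and 83 counts and did not pass the test (adjusted p = 0.157, chi-square test), whereas its neighbour Prelp did.

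The promoters shown next are those of Bgn as the highest member and of Ogn and Aspn, which were both low in clone 2. They are RefSeq sequences (GRCm38.p6) from 250 bases before to 50 bases after the start of the gene. The TATA box (letters TATAAA), the CCAAT box, the Sp1 box (letters GGGCGG) and the AP-1 site (letters TGANTCA) were searched on both strands, and matches are in capitals.
Bgn, chrX:73483351-73483650, plus strand: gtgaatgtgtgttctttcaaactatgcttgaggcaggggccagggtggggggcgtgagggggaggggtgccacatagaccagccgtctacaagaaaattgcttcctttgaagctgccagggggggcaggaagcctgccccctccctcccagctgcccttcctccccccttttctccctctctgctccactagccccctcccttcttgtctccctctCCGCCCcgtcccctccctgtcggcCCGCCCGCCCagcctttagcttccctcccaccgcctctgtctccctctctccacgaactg
Ogn, chr13:49607765-49608064, plus strand: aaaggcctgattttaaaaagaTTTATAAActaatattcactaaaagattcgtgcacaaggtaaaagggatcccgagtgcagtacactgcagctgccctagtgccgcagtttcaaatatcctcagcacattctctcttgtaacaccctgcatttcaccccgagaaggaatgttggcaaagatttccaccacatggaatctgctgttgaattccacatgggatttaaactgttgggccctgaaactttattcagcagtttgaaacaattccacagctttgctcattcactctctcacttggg
Aspn, chr13:49544193-49544492, plus strand: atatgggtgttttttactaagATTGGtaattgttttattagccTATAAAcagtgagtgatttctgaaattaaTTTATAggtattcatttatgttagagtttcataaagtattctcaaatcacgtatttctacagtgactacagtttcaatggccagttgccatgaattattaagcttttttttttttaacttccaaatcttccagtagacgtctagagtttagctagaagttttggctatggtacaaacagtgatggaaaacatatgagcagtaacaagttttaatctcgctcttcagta
The Bgn promoter held 63.7% G and C and 9 CpG, against medians of 52.7% and 7 over 32851 promoters of the same length. It had 3 matches to the Sp1 box on the minus strand, at positions -34, -10 and -6 from the start, the last of which overlap each other, and no TATA box. The Sp1 box was found in 35.7% of all promoters. The Ogn promoter held 42.3% G and C and the Aspn promoter 31.0%. Each had 2 TATA matches, a motif that 13.6% of all promoters hold. They lay far from the start, at positions -229 and -227 in Ogn, where they overlap each other, and at -207 and -178 in Aspn. Aspn also had 1 CCAAT box on the minus strand, at position -229, a motif in 37.4% of promoters. None of these promoters held the AP-1 letters, which 7.8% of all promoters did. Of the 9 members, 7 have an entry in the promoter table.

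Outside the members, the family had 1 abundant gene. Tsku, which encodes the secreted signalling inhibitor tsukushi, had 1840, 2487 and 2150 counts in clones 1, 2 and 3, or 29.5 ± 6.09 CPM per kb of exon (SD, n = 3), in the range of Ogn, Fmod and Aspn. It was highest in clone 2 and differed by 1.49-fold (adjusted p = 7.22e-39, chi-square test). Podnl1, the relative of Podn, was at 130, 109 and 149 counts and did not pass (adjusted p = 0.334). Of 9 further family genes, 5 could be tested and 1 was called, beside 62.5% of all genes tested. Of the 9, 3 (Tsku, Podnl1 and Optc) reached 1 CPM in every clone. Chadl had 27, 21 and 16 counts (adjusted p = 0.281), with 19.5% of its exon length under exons of L3mbtl2 on the opposite strand. Nyx, a gene of the retina, had 4, 3 and 4 counts. Chad, a cartilage gene, had 13 counts in clone 1 and 0 in clones 2 and 3.

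Most genes of the enzymes that build the sugar chains were detected in every clone. Of 7 genes for the linker to the core protein, 6 were found by symbol, and all 6 were at 1 CPM or more in every clone. Of these 6, 5 differed between clones, beside 62.5% of all genes tested, and none by 2-fold. Xylt2, one of the xylosyltransferases that start the chain, was at 54.4 ± 4.26 CPM (SD, n = 3), and Fam20b, the xylose kinase, at 54.1 ± 3.55. Among the genes that differed, B4galt7 and B3galt6, the galactosyltransferase genes of the linker, had the largest ranges. B4galt7 differed by 1.22-fold (adjusted p = 0.00058, chi-square test) and B3galt6 by 1.23-fold (adjusted p = 0.0115, chi-square test). Of 16 genes for chondroitin and dermatan sulfate, 14 were at 1 CPM or more in every clone. Of the 15 tested, 11 differed, beside the same 62.5% of all genes. Chpf and Chpf2, which take part in chain polymerisation, had the highest means at 303 ± 45.4 and 234 ± 47.0 CPM (SD, n = 3). Chst3, a chondroitin sulfotransferase gene with 12, 28 and 16 counts, was the only one past 2-fold, and Chst11, a chondroitin sulfotransferase gene, differed by 1.46-fold.

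Of 8 genes for keratan sulfate, 6 were at 1 CPM or more in every clone. Of 6 tested, 4 differed, beside 62.5% of all genes tested. B4galt1, a galactosyltransferase gene, was at 159 ± 10.2 CPM and Chst2, a sulfotransferase gene, at 119 ± 26.8 CPM (SD, n = 3). Chst2 (2315, 3308 and 2944 counts) and Chst1 (181, 247 and 241 counts) were lowest in clone 1, where most members were highest. All 9 genes that supply precursors were at 1 CPM or more in every clone, and 6 of them differed, beside the same 62.5%. Among these, Ugdh, which makes UDP-glucuronate, was at 73.8 ± 13.8 CPM and Slc35b2, a transporter of the sulfate donor, at 69.5 ± 5.58 CPM (SD, n = 3). Ugdh differed by 1.46-fold and Uxs1, which makes UDP-xylose, by 1.32-fold, both lowest in clone 1. The median log2 range of these 4 lists was 0.22 to 0.28, near the 0.28 of all genes tested.

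The collagens that these proteoglycans bind were the most abundant partners. Of 11 genes, 10 differed between clones, beside 62.5% of all genes tested, and 1 by 2-fold, beside 7.93%. The chains of collagen I led, with 27713 ± 3778 CPM for Col1a1 and 14380 ± 2098 CPM for Col1a2 (SD over 3 clones), both highest in clone 1. Col6a1 and Col6a2, chains of the microfibrillar collagen VI, were highest in clone 2 with ranges of 1.81-fold and 2.19-fold. Of 14 receptor and growth factor genes, 13 differed, beside the same 62.5%. Lrp1, an endocytic receptor, was at 2197 ± 484 CPM and the hyaluronan receptor gene Cd44 at 1199 ± 259 CPM (SD, n = 3). Tlr2, an innate immune receptor that biglycan can engage, had 137, 261 and 105 counts, and Kdr, a VEGF receptor, 163, 214 and 314.

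Of 12 protease genes, 10 of the 11 tested differed, beside 62.5% of all genes tested. Of these 11, 8 differed and were highest in clone 1, beside 23.8% of all genes tested. Mmp14 was at 1441 ± 137 CPM and Mmp2 at 984 ± 359 CPM (SD, n = 3), and Mmp2 had its lowest count in clone 2 with 34274, 15324 and 22535 counts, a 2.03-fold range. Mmp13, the collagenase 3 gene, was highest in clone 2 with 53, 139 and 52 counts. Of 12 other matrix proteoglycan genes, 6 of 9 tested differed, beside the same 62.5%. Their summed level was 5118, 3729 and 3930 CPM in clones 1, 2 and 3, most of it from the perlecan gene Hspg2 at 3557 ± 801 CPM (SD, n = 3). Cspg4 was at 356 ± 5.73 CPM (SD, n = 3) and did not pass. Esm1 (28, 155 and 62 counts) and Srgn (38, 151 and 46 counts), the latter a proteoglycan gene of blood cells, had the largest ranges and were highest in clone 2.

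The label of the cells was compared with marker genes. All 10 fibroblast markers were at 1 CPM or more in every clone. All 10 differed between clones, beside 62.5% of all genes tested, with 6 of them highest in clone 2 and 4 in clone 1. Of all 12218 genes tested, 2867 differed and were highest in clone 2, and 2904 in clone 1. The ranges of the fibroblast markers ran from 1.11-fold for Vim, at 4002 ± 202 CPM (SD, n = 3), to 2.32-fold for Pdgfra, with 292, 615 and 424 counts. In bulk RNA, fewer cells of a type and less RNA per cell cannot be told apart. All 9 leukocyte markers differed and were highest in clone 2, beside 2867 of all 12218 genes tested. In that clone Ogn and Aspn were lowest and Prelp highest. The summed level of the leukocyte markers was 346, 1657 and 285 CPM in clones 1, 2 and 3. Their part in the members' differences was not tested. Of the cartilage markers, 6 of 9 were at 1 CPM or more in every clone, while Matn1 had 6, 2 and 0 counts. The summed levels of that list were 819, 559 and 785 CPM, most of which came from Col2a1. Of the 6 cartilage markers tested, 5 differed, beside 62.5% of all genes tested. Among these 5, Col2a1 and Comp were lowest in clone 2, at 10979 and 24 counts there. Sox9 and Acan were highest in clone 2, and Col11a2 was lowest in clone 3 with 446, 190 and 132 counts. Of the tendon markers, 4 of 5 were at 1 CPM or more in every clone, with summed levels of 366, 249 and 312 CPM. Most of this came from Egr1, at 294, 199 and 236 CPM. Of 4 tendon markers tested, 3 differed and were lowest in clone 2, as Ogn and Aspn were, beside 21.3% of all genes tested. They were Scx at 123, 48 and 89 counts, Tnmd at 1600, 1025 and 1743 and Egr1 at 7297, 4478 and 5959. Of the osteoblast markers, 2 of 7 reached 1 CPM in every clone, Spp1 at 1838 ± 499 CPM and Runx2 at 25.6 ± 1.60 CPM (SD, n = 3), while Bglap, Ibsp and Sp7 were at or under 31 counts in every clone. All 6 smooth muscle markers did, with summed levels of 10426, 10362 and 10657 CPM, most of which came from Acta2 and Tagln. Among them, Myh11 (4935, 1801 and 4292 counts), Des (1778, 701 and 2438) and Smtn (4764, 3049 and 4555) were lowest in clone 2, as Ogn and Aspn were. Of all genes tested, 21.3% differed and were lowest there. The rest of the smooth muscle list was not lowest in clone 2: Cnn1 was highest in clone 2, Acta2 lowest in clone 1 and Tagln lowest in clone 3. Of the endothelial list 1 of 5 genes reached 1 CPM in every clone (Kdr), and of the epithelial list 1 of 6 (Krt18). Pecam1 and Epcam, defining markers of these types, had at most 15 and 5 counts.

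The 6 proliferation markers were lowest in clone 1, with summed levels of 368, 723 and 609 CPM, and the 3 arrest markers were highest there, at 587, 411 and 464 CPM. Of all 12218 genes tested, 3306 differed and were lowest in clone 1, and 2904 differed and were highest there. Clone 1 is also the library in which 6 of the 8 members tested differed and were highest, beside 23.8% of all genes tested. As each clone is 1 library, the growth state, the other cells of the culture and the library cannot be told apart. How far they bear on the members was not tested.

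**Figure D5:**
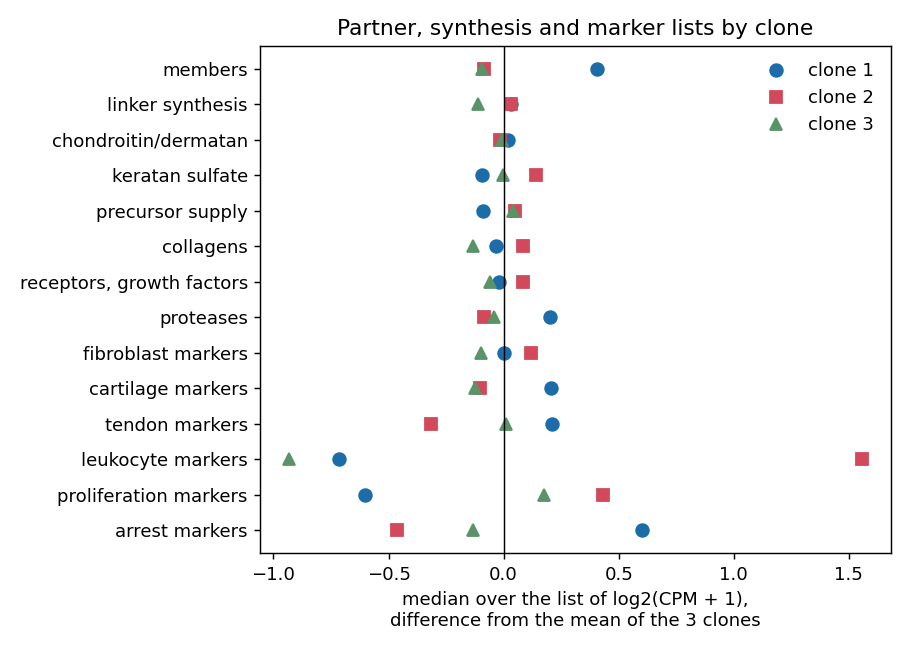
Median over each list of log2(CPM + 1) relative to the 3-clone mean, over genes that averaged 1 CPM or more, 1 symbol per clone. The members sit at 0.40 in clone 1, the leukocyte markers at 1.56 in clone 2, and the synthesis lists stay between -0.11 and 0.14.

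The genes most like 2 of the members were named by the distance between their log2(CPM + 1) differences over the 3 clones, among genes that averaged 10 CPM or more. The nearest to Ogn was Col11a1, a fibrillar collagen chain gene of cartilage and other tissues, with 15788, 4464 and 12319 counts at a distance of 0.09. Gm6548, a predicted gene, followed at 0.20 and Islr at 0.25. Only 2 of 8389 genes lay within 0.2 of Ogn. The nearest to Dcn were Dusp1 (3449, 2375 and 1848 counts) at 0.02, Sik1 at 0.07 and Als2cl at 0.10, and 17 of 8390 genes lay within 0.2. The likeness rests on 3 libraries and is a description.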

How the data were processed

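The RNA-seq samples were 3 libraries of WT MEFs, each the group's replicate with the same number in its label. Per the methods, reads of 86 nt were aligned with TopHat 2.0.0, allowing 2 mismatches and 5 multi-hits, and assigned to genes with HTSeq (Bowtie was version 0.12.7, SAMtools 0.1.16). The methods name mm10 and the processing notes of the labels mm9. The annotation, the HTSeq version and its strand setting are not given in the sources used here. The deposited values are raw counts per gene from the authors, 1 column per clone, with no coordinates. Positions and lengths come from GENCODE M21 (GRCm38).

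CPM used edgeR 4.0.16 TMM library sizes (R 4.3.3), and log2 values a pseudocount of 1 CPM. Genes that reached 10 counts in all clones entered the chi-square test, with 2 degrees of freedom, and were called at a Benjamini-Hochberg adjusted p-value under 0.05. This test was tried on simulated data. Coefficients of variation were fitted with an intercept only and no shrinkage. Proteins were aligned with Biopython 1.88 (BLOSUM62). Calculations used Python 3.11.15, numpy 2.4.6, pandas 2.3.3 and scipy 1.17.1. Alternatives were DESeq2 1.42.0 size factors, total counts, other count filters, CPM thresholds, pseudocounts and lengths, and leaving out each clone. Members and lists were chosen with earlier results of these data known. Named were all members, 9 further family genes and, per partner or synthesis list, the 2 genes with the highest mean and the 2 called genes with the largest range. The likeness rule named 3 genes each for Dcn and for the member with the largest range. Other genes were named from the marker lists, or for their position, after their values were seen.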

Additional observations from a re-analysis of the deposited data

How the results depend on the processing

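The number of members that differed between clones was 7, and 6 to 8 under every alternative except without clone 1, where it was 5. The number of all genes that differed was 7642, and between 3893 and 6531 when a clone was left out, the lowest being without clone 1. DESeq2 size factors gave 7629, total counts 7802, a filter of 1 count in any clone 7834 and one of 100 counts in every clone 6661. In all, 8 members were at 1 CPM or more in every clone, 7 at 2 CPM. The Bgn share of the members was 93.9% per kb of exon, 97.3% per kb of coding transcript and 97.1% with no division by length, and 93.1% to 94.6% when a clone was left out. The Dcn share of Dcn and Bgn was 0.104% per kb of exon and 0.137% per kb of coding transcript, and 0.09% to 0.122% when a clone was left out. The median coefficient of variation of the members was 0.365, and 0.187 to 0.257 when a clone was left out, with no value over all genes beside it. The 2-fold counts without each clone were added after seeing the data: members fell from 5 to 2 or 3, and all genes from 969 to 484 without clone 1, 203 without clone 2 and 835 without clone 3. A highest-to-lowest ratio over fewer clones cannot be larger, apart from shifts in scaling and in the genes tested, so falls were set by the measure. How far the falls go beyond that was not tested. No paired analysis was possible because there is only 1 group. Depth limits Kera, Lum and the family genes with fewer than 10 counts in a clone.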
